A study of Mus musculus with 9 samples.

Results

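Nr4a1 and 9 other immediate early genes were read in RNA from mouse testes on postnatal day 7. The 10 genes are the orphan nuclear receptors Nr4a1, Nr4a2 and Nr4a3, the AP-1 subunits Fos, Fosb, Jun and Junb, the zinc-finger factors Egr1 and Klf6, and Ier2. They are 10 of 56691 genes in the count table, and all 10 were found by their Ensembl identifiers. Nr4a1 was selected on a measured value, a level lower than in wild type in both knockout groups, so its differences from wild type are given as a description. The other 9 were chosen for belonging to the same class of genes, with earlier results of these data known.

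Messenger RNA, captured on oligo(dT) beads, was sequenced in 9 libraries. Wild-type (WT) mice gave 3 of them, 3 are labelled Gm1142-/-, and 3 are labelled Gm1142-/- Gm4779-/-, called the double knockout here. The labels do not give the strain, the kind of allele, or whether replicates were separate animals, so the spread behind each p-value is that of these 9 samples and could be technical. In bulk tissue, fewer cells of a type and less RNA per cell cannot be told apart.

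Gm1142 and Gm4779, the targeted genes, had 0 counts in 3 of 3 double-knockout libraries. In the libraries labelled Gm1142-/-, Gm1142 had 65, 46 and 50 counts against 56, 50 and 41 in WT. The counts thus do not check that label, and this group is known by its label alone. Total counts were 4514237 to 5091624 in WT, 4597447 to 5243756 in libraries labelled Gm1142-/- and, for the double knockout, 4370124 to 8359594, with replicate 2 the deepest. Mitochondrially encoded genes took 32.5% to 38.9% of the counts in libraries labelled Gm1142-/-, 29.4% to 32.7% in WT and 27.1% to 32.9% in the double knockout. Leaving these genes out of the fit gave a Nr4a1 log2 fold change from WT of -2.65 in libraries labelled Gm1142-/-, against -2.64 with them. What lies behind their share, and its part in the differences below, was not tested. Markers of the main testis cells were present: summed over 8 Leydig cell genes, 10 Sertoli cell genes and 10 germ cell genes, the levels in WT were 1199 to 1393, 691 to 762 and 410 to 484 CPM (counts scaled to a common library total). Hsd17b3 alone gave 804 of the mean 1323 CPM of the first sum.

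Immediate early genes are transcribed within minutes of a signal, without new protein synthesis, because the factors that switch them on (CREB, SRF with its ternary complex partners) are already in the cell and are activated by phosphorylation. Their mRNAs are short-lived, and many of their proteins are transcription factors that pass the signal on. In the testis, Nr4a1 (also called Nur77) is best known from Leydig cells, where luteinizing hormone induces it through cyclic AMP and where it acts on genes of steroid hormone synthesis.

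The regulatory sequence in front of the receptors is shown first, because the 3 receptor genes share a feature there and Nr4a1 differs from the other two. RefSeq promoter windows, in build GRCm38.p6, were held for 8 of the 10 genes, and the 250 bases before the start site were searched on both strands. In the sequences below, capitals mark each match, of TGCGTCA for Nr4a1 and of TGACG for the others. TGACG, or CGTCA on the other strand, is the core of the cyclic AMP response element, which CREB binds. TGCGTCA contains CGTCA, so each of its matches is also a match of TGACG. Fos is shown as the classical cyclic AMP-responsive gene of the group.
Nr4a1, chr15:101266596-101266845, plus strand: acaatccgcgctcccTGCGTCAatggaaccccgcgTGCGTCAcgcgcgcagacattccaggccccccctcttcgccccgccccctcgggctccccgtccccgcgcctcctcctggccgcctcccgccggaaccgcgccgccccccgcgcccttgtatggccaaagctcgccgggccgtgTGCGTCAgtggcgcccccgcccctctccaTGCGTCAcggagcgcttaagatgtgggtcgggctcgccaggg
Nr4a2, chr2:57124004-57124253, minus strand: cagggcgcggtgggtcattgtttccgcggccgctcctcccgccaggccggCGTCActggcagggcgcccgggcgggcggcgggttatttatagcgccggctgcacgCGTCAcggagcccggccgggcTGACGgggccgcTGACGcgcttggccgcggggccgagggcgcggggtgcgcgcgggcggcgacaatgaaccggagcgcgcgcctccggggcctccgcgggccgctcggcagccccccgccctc
Nr4a3, chr4:48045055-48045304, plus strand: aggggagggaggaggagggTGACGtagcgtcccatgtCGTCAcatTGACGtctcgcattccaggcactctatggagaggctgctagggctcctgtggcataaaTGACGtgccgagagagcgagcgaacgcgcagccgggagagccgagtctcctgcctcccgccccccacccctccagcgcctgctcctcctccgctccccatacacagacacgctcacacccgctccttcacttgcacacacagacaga
Fos, chr12:85473640-85473889, plus strand: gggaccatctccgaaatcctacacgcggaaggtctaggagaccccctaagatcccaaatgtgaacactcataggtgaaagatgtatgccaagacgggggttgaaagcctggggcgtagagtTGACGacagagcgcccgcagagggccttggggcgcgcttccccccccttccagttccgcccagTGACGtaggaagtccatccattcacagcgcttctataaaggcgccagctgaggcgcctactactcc

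TGACG occurred 4 times in the window of each of the 3 receptors, and 45 of 32851 windows of all genes (0.137%) held at least 4 matches. In Nr4a1 all 4 lay within TGCGTCA, whose first bases were 235, 215, 71 and 42 bases before the start site. At least 1 TGCGTCA was found in 1.75% of all windows, and the Nr4a1 window was the only 1 of 32851 with 4. TGCGTCA was chosen after the Nr4a1 sequence had been read. The Nr4a2 and Nr4a3 windows held none of it, and Fosb held 1.
Fos held 2 TGACG matches, Fosb and Junb 1 each, and Jun and Klf6 none. The full palindrome TGACGTCA (1.55% of all windows), the AP-1 site TGANTCA (6.75%), the Nr4a monomer site AAAGGTCA (1.34%), the Egr site GCGTGGGCG (0.536%) and the CArG box that SRF binds (1.47%) had no match in any of the 8 windows. TATAAA (12.4%) was found in Nr4a2 and Fos. The GC content was 74.4% for Nr4a1, 80.0% for Nr4a2, 63.6% for Nr4a3 and 58.4% for Fos, against a median of 52.4% over all windows. These matches describe letters in a short window, and binding was not measured.

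In WT testes Nr4a1 was by far the most abundant of the 10 transcripts. To compare genes, CPM values were divided by the exonic length in kilobases of the GENCODE M21 annotation. On this scale, as mean ± SD of 3 libraries, the level was 44.7 ± 4.29 CPM per kb for Nr4a1, 8.23 ± 1.498 for Klf6, 5.36 ± 0.936 for Jun and 4.48 ± 1.23 for Egr1. Ier2 followed at 2.46 ± 0.862, with Nr4a2 at 1.255 ± 0.0820, Junb at 1.14 ± 0.935 and Fos at 1.01 ± 0.319. Nr4a3 (0.398 ± 0.156) and Fosb (0.345 ± 0.0595) were lowest. The WT libraries of Nr4a1 lay above all those of Klf6, and those of Klf6 above all those of Jun. Neighbouring genes with overlapping WT ranges were Jun and Egr1, Egr1 and Ier2, Nr4a2 with Junb and Fos, and Nr4a3 and Fosb.

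**Figure D1:**
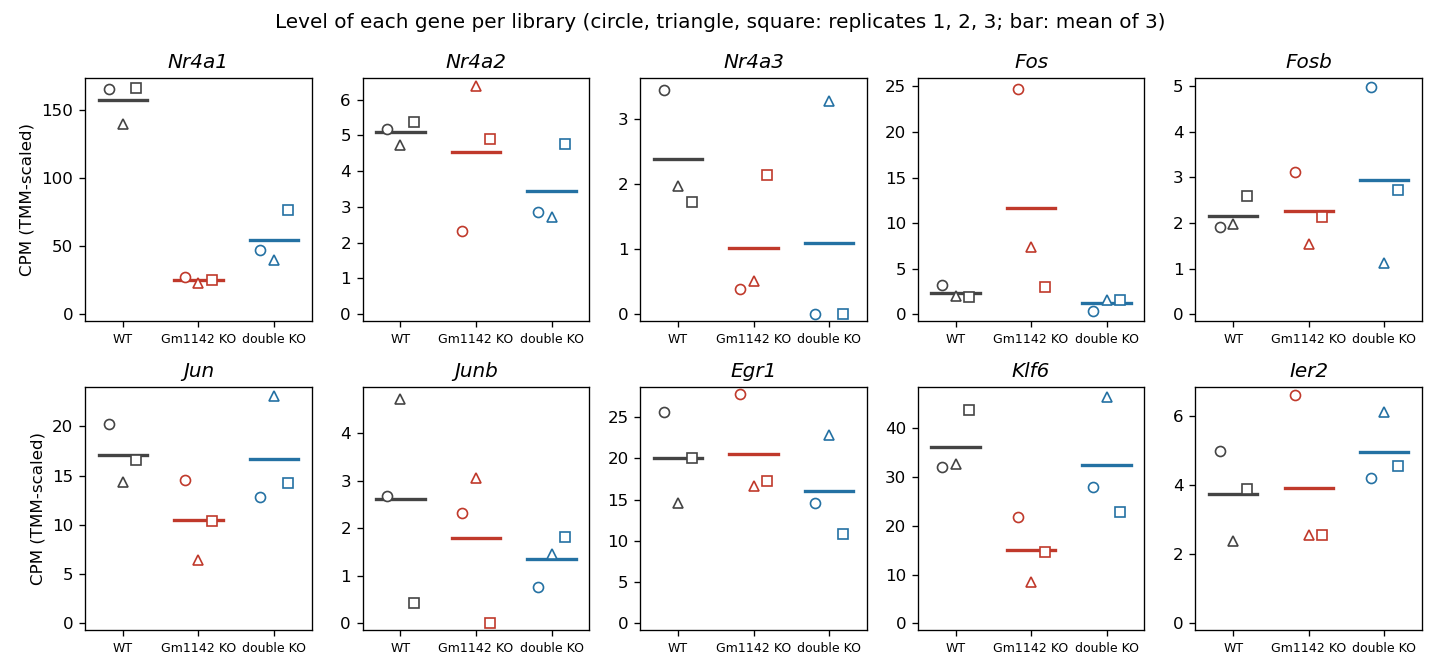
Level of each of the 10 genes in CPM (linear axes, each gene on its own scale) in 9 libraries, by group. Open symbols are replicates 1, 2 and 3 and bars are means of 3. Nr4a1 lies at 139.6 to 166 CPM in WT, 23.0 to 27.0 in libraries labelled Gm1142-/- and 39.9 to 76.3 in the double knockout, while most other genes overlap between groups.

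Nr4a1 (ENSMUSG00000023034.8, chromosome 15) had 165, 139.6 and 166 CPM in WT replicates 1, 2 and 3. It had 27.0, 23.0 and 25.1 CPM in libraries labelled Gm1142-/-, and 47.5, 39.9 and 76.3 CPM in the double knockout. The 3 groups did not overlap: WT was highest, the double knockout intermediate and the libraries labelled Gm1142-/- lowest and tightest. The group means were 157 ± 15.1, 25.1 ± 1.99 and 54.6 ± 19.2 CPM (SD, n = 3 each). WT was thus 6.27-fold above the libraries labelled Gm1142-/- and 2.88-fold above the double knockout. Of 17251 tested genes, 472 (2.74%) lay below WT without overlap in both knockout groups.

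The log2 fold change from WT was -2.64 in libraries labelled Gm1142-/-, the 49th lowest among 17251 tested genes, and -1.54 in the double knockout, the 61st lowest. These 2 values come from the contrasts that chose the gene, share the WT libraries and are given without a test. The difference between them, 1.10 in log2 units from the libraries labelled Gm1142-/- to the double knockout, comes from the same libraries and is a description too. Without double-knockout replicate 3, the highest of its group, it was 0.79.

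Nr4a2 (Nurr1), the receptor known for dopamine neurons, was much lower. It had 5.17, 4.73 and 5.38 CPM in WT, 2.33, 6.39 and 4.90 in libraries labelled Gm1142-/- and 2.87, 2.71 and 4.76 in the double knockout. The libraries labelled Gm1142-/- lay on both sides of WT. The log2 fold change was -0.18 in them (95% interval -1.09 to 0.72, edgeR adjusted p = 0.822) and -0.59 in the double knockout (-1.50 to 0.32, edgeR adjusted p = 0.735). Nr4a1 was chosen for being low, so its values are not set against these intervals. The difference between the 2 genes was not tested.

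Nr4a3 (Nor1), the remaining receptor, had too few counts for the test. Its counts were 18, 10 and 8 in WT, 2, 2 and 10 in libraries labelled Gm1142-/-, and 0, 29 and 0 in the double knockout. The 29 counts were in replicate 2, the deepest library, where they made 3.27 CPM. A floor of 3 counts corresponds to 0.574 CPM in double-knockout replicate 1 and 0.680 in replicate 3, so lower levels were not detectable there.

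Nr4a1 was the main receptor transcript in every library. Of the counts of the 3 receptors it took 95.04%, 95.4% and 95.9% in WT, and 90.8%, 76.9% and 78.1% in libraries labelled Gm1142-/-. In the double knockout the shares were 94.3%, 87.0% and 94.1%. The lowest, 76.9%, rested on 117 receptor counts (Wilson 95% interval 68.5% to 83.6%), and the WT shares on 742 to 908. Nr4a1 was chosen for being low in both knockout groups, so a lower share there follows in part from that choice and is a description. Intervals and floors cover counting error only.

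The AP-1 subunits pair into dimers that bind the AP-1 site, with Fos and Fosb depending on a Jun protein as partner. Among the 8 tested genes other than Nr4a1, Fos was higher and Klf6 lower in libraries labelled Gm1142-/- than in WT (2 of 8, edgeR), in a comparison in which 18.5% of all tested genes were called. None of the 8 was called in the double knockout against WT by edgeR, DESeq2 or limma-voom, and none had an unadjusted edgeR p under 0.05; 0.0927% of all tested genes were called there. Between the knockout groups Fos and Klf6 were called too, 2 of 8, beside 19.1% of all tested genes. That comparison uses the same libraries labelled Gm1142-/- as the first. Its calls are thus not independent of the first, here or in the lists below. Fos entered the test through the group in which it was high, so the counts are not read as a result about these genes, and Klf6 was the only other call. Called genes that were higher made up 10.2%, 0.0464% and 9.07% of tested genes in these comparisons in turn, and lower ones 8.38%, 0.0464% and 10.1%. Groups did not overlap for 35.9%, 15.9% and 33.4% of tested genes.

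**Figure D2:**
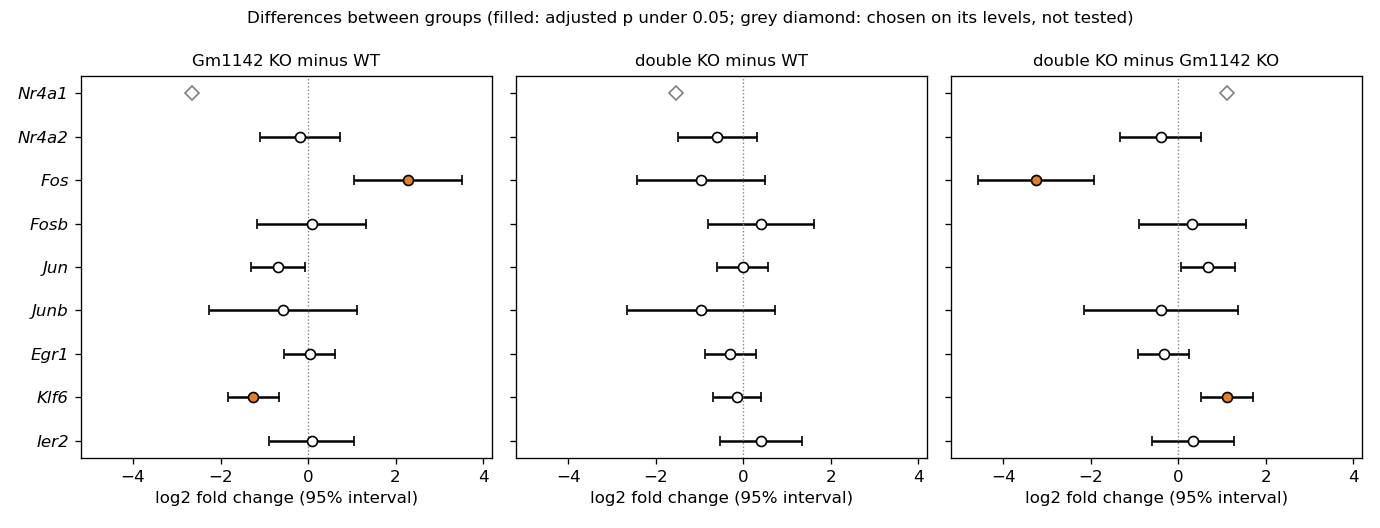
Log2 fold changes of the 9 tested genes in 3 comparisons, with 95% intervals of the quasi-likelihood fit. Filled points passed an adjusted p of 0.05; grey diamonds are the values of Nr4a1 (-2.64, -1.54 and 1.10), which was chosen on its levels in these libraries and is shown without an interval. Fos and Klf6 are filled in the left and right panels and not in the middle one.

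Fos had 3.25, 1.97 and 1.94 CPM in WT, 24.7, 7.42 and 2.98 in libraries labelled Gm1142-/- and 0.383, 1.58 and 1.59 in the double knockout. Replicate 1 of the libraries labelled Gm1142-/-, with 127 counts, was far above the others, and replicate 3 lay within the WT range. The log2 fold change from WT was 2.29 (SE 0.60, edgeR adjusted p = 0.0102). The call rested on that one library: without it the value was 1.10 (edgeR adjusted p = 0.265). It was also missed with limma-voom (1.82, limma-voom adjusted p = 0.0789). Fos reached the 2 CPM of the filter in 3 of 3 libraries labelled Gm1142-/-, 1 of 3 in WT and 0 of 3 in the double knockout, so it entered the test through the group in which it was high.

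In the double knockout Fos was at -0.97 against WT (SE 0.70, edgeR adjusted p = 0.724), although its 3 libraries lay below the WT ones. Against the libraries labelled Gm1142-/- it fell by 3.26 in log2 units (SE 0.64, edgeR adjusted p = 0.00123), in 3 of 3 libraries. Here too Fos was tested only because it was high in the libraries labelled Gm1142-/-. Without replicate 1 of the latter this was -2.07 (edgeR adjusted p = 0.0345), and without double-knockout replicate 2 as well -2.40 (edgeR adjusted p = 0.0524).

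Fosb, the closest relative of Fos, was near the limit of what the depth could measure. It had 10, 10 and 12 counts in WT, 16, 6 and 10 in libraries labelled Gm1142-/- and 26, 10 and 12 in the double knockout. All groups overlapped. Log2 fold changes were 0.09 (95% interval -1.16 to 1.33) in the first comparison with WT and 0.41 (-0.81 to 1.62) in the second, with edgeR adjusted p of 0.943 and 0.886.

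Jun, which can dimerize with itself or with Fos, had 20.3, 14.4 and 16.6 CPM in WT. In the libraries labelled Gm1142-/- it had 14.6, 6.39 and 10.4 CPM, and in the double knockout 12.8, 23.1 and 14.3. The double knockout surrounded the WT values, and 2 of the 3 libraries labelled Gm1142-/- lay below all of them. Jun had a log2 fold change of -0.69 in libraries labelled Gm1142-/- (SE 0.30, edgeR adjusted p = 0.115) and -0.01 in the double knockout (SE 0.28, 0.994). The first value passed when replicate 1 of those labelled Gm1142-/- was left out (-1.01, edgeR adjusted p = 0.0370). Without that library Jun was also called between the knockout groups, at 0.9999 (edgeR adjusted p = 0.0356) in place of 0.68 (0.112).

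Junb, a Jun protein that often restrains Jun, had 14, 24 and 2 counts in WT, 12, 12 and 0 in libraries labelled Gm1142-/- and 4, 13 and 8 in the double knockout. WT itself ran from 0.431 to 4.73 CPM, so the groups could not be told apart at this depth. Its log2 fold changes were -0.56 (95% interval -2.25 to 1.12) and -0.96 (-2.65 to 0.73) against WT, with edgeR adjusted p of 0.684 and 0.784.

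Egr1, a zinc-finger factor induced through SRF, had 25.7, 14.6 and 20.03 CPM in WT, 27.8, 16.6 and 17.3 in libraries labelled Gm1142-/- and 14.5, 22.8 and 10.9 in the double knockout. The groups overlapped in every pair. Against WT the log2 fold change was 0.04 (95% interval -0.54 to 0.62, edgeR adjusted p = 0.943) in libraries labelled Gm1142-/- and -0.29 (-0.87 to 0.29, 0.815) in the double knockout. Nr4a1 was chosen for its falls, so they are not set against these intervals, and the difference between the genes was not tested.

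Klf6, a Krüppel-like factor and the second most abundant gene of the group, had 31.97, 32.7 and 43.7 CPM in WT. It had 21.8, 8.44 and 14.7 CPM in libraries labelled Gm1142-/- and 27.9, 46.5 and 22.9 in the double knockout. The libraries labelled Gm1142-/- lay below every other library, while the double knockout overlapped WT. The log2 fold change from WT was -1.25 (SE 0.28, edgeR adjusted p = 0.00382), lower in 3 of 3 libraries, and it stayed called whichever library was left out (-1.62 to -0.98, highest edgeR adjusted p = 0.0281). In the double knockout it was -0.13 (SE 0.26, 0.921).

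Between the knockout groups Klf6 rose by 1.11 on the log2 scale in the double knockout (SE 0.28, edgeR adjusted p = 0.00871). This call was lost without double-knockout replicate 2 (0.75, edgeR adjusted p = 0.0966). Klf6 shared with Nr4a1 the low level in libraries labelled Gm1142-/-. In the double knockout against WT, the 95% interval of Klf6 was -0.68 to 0.42. Nr4a1 was chosen on its own levels, and the difference between the genes was not tested.

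Ier2, a small nuclear protein gene of the same class, had 4.98, 2.37 and 3.88 CPM in WT, 6.60, 2.56 and 2.56 in libraries labelled Gm1142-/- and 4.21, 6.09 and 4.53 in the double knockout. Its log2 fold changes from WT were 0.08 (95% interval -0.89 to 1.06, edgeR adjusted p = 0.930) and 0.41 (-0.53 to 1.36, 0.844). The groups overlapped. The 6 tested genes not called between the knockout groups (Nr4a2, Fosb, Jun, Junb, Egr1 and Ier2) had log2 fold changes of -0.41 to 0.68, with edgeR adjusted p of 0.112 to 0.790.

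**Figure D3:**
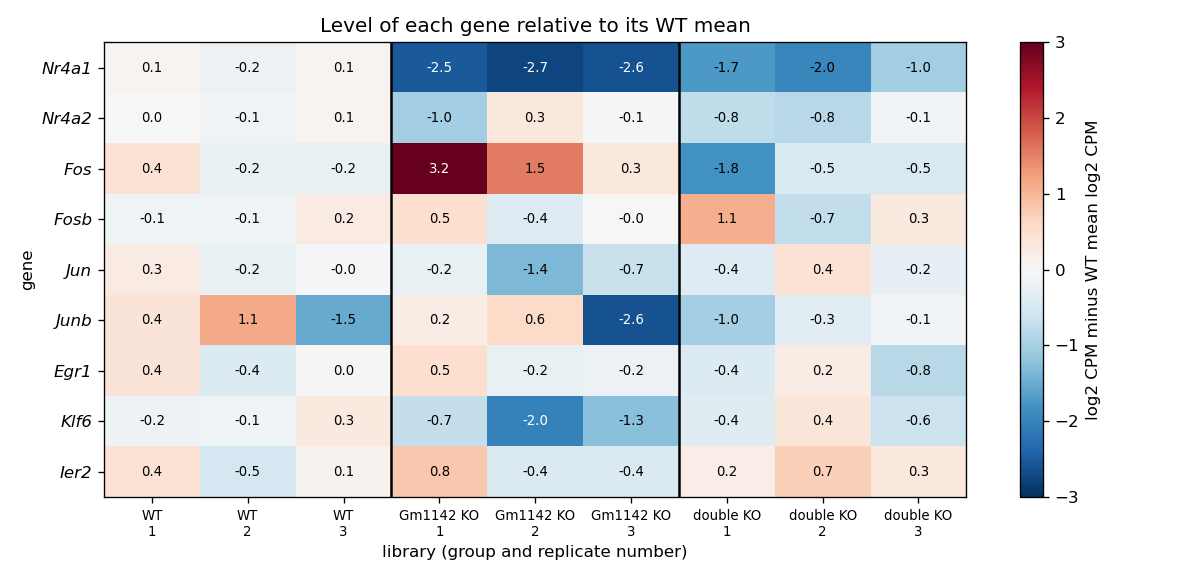
Log2 CPM of the 9 tested genes in each library minus the gene's WT mean log2 CPM (rows: genes; columns: 9 libraries in 3 groups; red above and blue below the WT mean). Nr4a1 is below WT in all 6 knockout libraries (-2.74 to -1.03), and Fos reaches 3.21 in replicate 1 of those labelled Gm1142-/-.

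Pooled over the groups, the genes varied more between replicates than most genes, with Nr4a1 as the exception. The SD of log2 CPM within groups, pooled over the 3 groups, was 0.30 for Nr4a1 and 0.30 for the median of all tested genes. For Fos it was 0.98 and for Junb 1.31, larger than in 97.9% and 99.7% of tested genes, and for the other 6 it was 0.44 to 0.60. Low counts widen this spread, and the 9 genes differ in abundance. By group, the SD of Nr4a1 was 0.14 in WT, 0.11 in libraries labelled Gm1142-/- and 0.48 in the double knockout. The medians of all tested genes were 0.22, 0.27 and 0.27.

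Some libraries were the extreme of their group for several genes, although shares over all tested genes were not computed. Leaving Nr4a1 aside, replicate 1 of those labelled Gm1142-/- was the highest of its group for 6 of 9 genes, and WT replicate 1 and double-knockout replicate 2 for 5 of 9 each. Double-knockout replicate 1 was the lowest of its group for 5 of 9, among them Nr4a3, where it tied with replicate 3 at 0 counts. Within the double knockout, Nr4a1 itself was lowest in replicate 2 (39.9 CPM), where Jun, Egr1, Klf6 and Ier2 were highest. What these libraries share was not tested.

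Other immediate early genes were read from a list of 45, of which 39 were tested. In the libraries labelled Gm1142-/- 3 rose and 2 fell, 5 of 39 beside 18.5% of all tested genes (10.2% higher, 8.38% lower). The median log2 fold change was -0.07 beside -0.01 over all tested genes. Per1, a clock gene that is also induced through CREB, rose from 41.2 ± 3.07 to 109 ± 29.9 CPM (in log2, 1.39 with SE 0.17, edgeR adjusted p = 9.96e-06). Klf10, induced by TGF-beta, rose by 0.95 (edgeR adjusted p = 0.00264). Both passed in 9 of 9 fits that left out 1 library. The matricellular gene Ccn2 fell by 0.90 and was no longer called without WT replicate 3 (edgeR adjusted p = 0.0677) or replicate 3 of those labelled Gm1142-/-. The Notch target Hes1 fell by 0.80 and lost it without WT replicate 1 or that same library (0.0644). Ccn1 (1.12) lost it in 3 of 9 such fits, with a highest edgeR adjusted p of 0.217 without replicate 1 of those labelled Gm1142-/-.

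In the double knockout none of the 39 was called against WT by edgeR, DESeq2 or limma-voom, and 3 had an unadjusted edgeR p under 0.05. The median was -0.07 beside 0.02 over all tested genes. The smallest p values belonged to Ier5l (-0.50, edgeR adjusted p = 0.406) and Klf2 (-0.97, 0.461). Between the knockout groups 1 rose and 4 fell in the double knockout, 5 of 39 beside 19.1% of all tested genes, with a median of -0.26 beside 0.03. Ccn2 rose by 1.15 (edgeR adjusted p = 0.00172) and Per1 fell by 1.17 (6.50e-05), each called in 9 of 9 fits that left out 1 library. Zfp36, whose protein speeds the decay of immediate early mRNAs, fell by 1.22 (0.0193) but was no longer called without replicate 1 of those labelled Gm1142-/- (0.133), double-knockout replicate 1 or double-knockout replicate 2. Klf10 (-0.58) and Ccn1 (-0.93) lost it in 8 and 5 of the 9 fits, with a highest edgeR adjusted p of 0.193 (without replicate 3 of those labelled Gm1142-/-) and 0.406 (without replicate 1 of them).

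**Figure D4:**
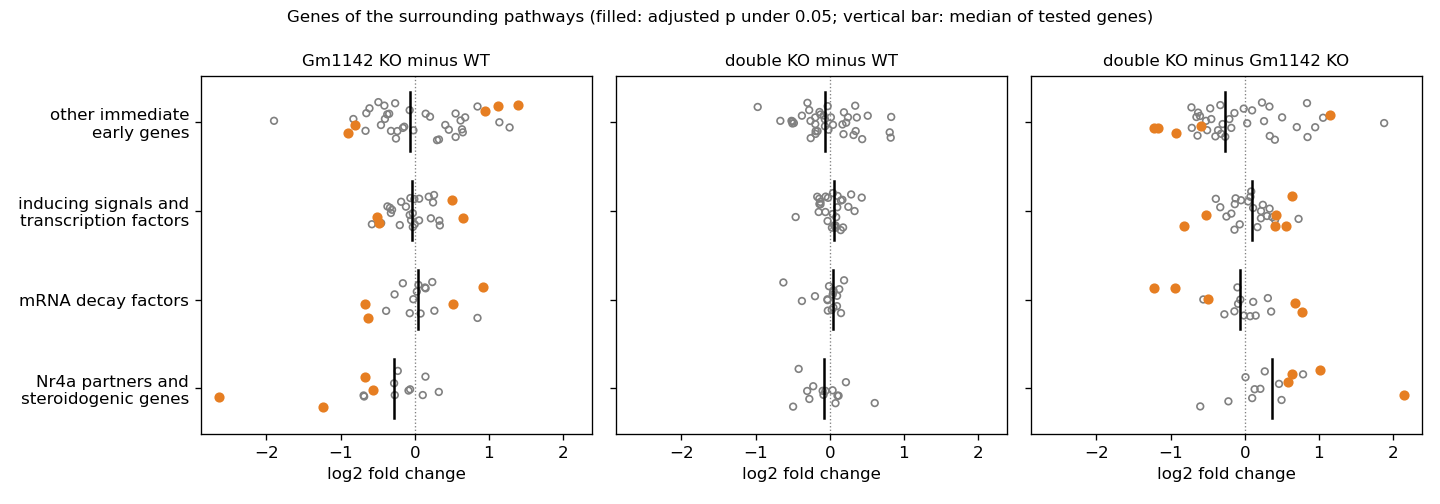
Log2 fold changes of the tested genes of 4 lists around the immediate early genes in 3 comparisons. Filled points passed an adjusted p of 0.05, open points did not, and vertical bars are list medians. No point is filled in the comparison of double knockout and WT. The steroidogenic list has 4 filled points in each of the other 2 comparisons, below 0 on the left and above 0 on the right.

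Signal and transcription factors that act on these genes, not all of them as inducers, were read next. Of 28 tested (30 listed), 2 rose and 2 fell in libraries labelled Gm1142-/-, 4 of 28 beside 18.5% of all tested genes, with a median of -0.04, and Srf and Creb1 were not among them. Crtc2, a coactivator of CREB, rose from 85.1 ± 2.34 to 120.3 ± 2.02 CPM (in log2, 0.50 with SE 0.12, edgeR adjusted p = 0.00726) and stayed called in 9 of 9 fits that left out 1 library. The cyclic AMP-dependent kinase subunit gene Prkar1a (-0.48), Rps6ka3 (-0.51) and Rps6ka5 (0.65) lost it in 3 to 5 of the 9, with highest edgeR adjusted p of 0.0866 (without WT replicate 1), 0.129 and 0.161 (both without replicate 2 of those labelled Gm1142-/-). None of the 28 was called in the double knockout against WT by the 3 tools, nor had any an unadjusted edgeR p under 0.05, with a median of 0.05; the smallest p values were those of Atf1 (0.29, edgeR adjusted p = 0.601) and Rps6ka1 (0.43, 0.606). Between the knockout groups 4 rose and 2 fell (6 of 28 beside 19.1%, median 0.10), and of these only Crtc2 (-0.52, edgeR adjusted p = 0.00537) stayed called in 9 of 9 fits. Rps6ka5 (-0.81), Rps6ka3 (0.56) and Prkaca (0.63), the catalytic kinase subunit, reached edgeR adjusted p of 0.0567 (without double-knockout replicate 1), 0.104 (without double-knockout replicate 2) and 0.0928 (without replicate 2 of those labelled Gm1142-/-).

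Factors that act on the stability of short-lived mRNAs gave counts near the background. Of 17, 2 rose and 2 fell in libraries labelled Gm1142-/- and 13 were not called, beside 18.5% called over all tested genes (median 0.05). Cnot6, a deadenylase of the CCR4-NOT complex, rose from 139.3 ± 17.4 to 263 ± 13.2 CPM (in log2, 0.92, edgeR adjusted p = 1.87e-04), while Cnot7, another deadenylase of that complex, fell by 0.63 (0.00158). The AU-rich element binding gene Hnrnpd rose by 0.52 (0.00345). These 3 stayed called in 9 of 9 fits that left out 1 library. Rc3h1 (-0.67) lost it in 5 of them, with a highest edgeR adjusted p of 0.140 without WT replicate 1. In the double knockout none of the 17 was called against WT by the 3 tools or had an unadjusted edgeR p under 0.05 (median 0.04), with Zfp36 (-0.37, edgeR adjusted p = 0.820) and Elavl1 (0.19, 0.823) first by p. Between the knockout groups 2 rose and 3 fell (5 of 17 beside 19.1%), with Cnot7 higher (0.68) and Cnot6 (-0.94) and Hnrnpd (-0.49) lower in the double knockout. The fourth, Rc3h1 (0.77), was no longer called without double-knockout replicate 2 (0.154) or replicate 2 of those labelled Gm1142-/-, and the fifth was Zfp36, given above.

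Steroidogenic genes and receptor partners were the last list. Of 14 tested (17 listed), 4 fell and none rose in libraries labelled Gm1142-/-, where Nr4a1 was lowest (4 of 14 beside 18.5% of all tested genes, 8.38% lower), with a median of -0.27 beside -0.01 over all tested genes. An earlier look at these data had shown Leydig cell genes lower in this group, so the direction is not independent evidence. Fdxr, which passes electrons to mitochondrial steroid enzymes, had 263, 232 and 242 CPM in WT, 99.2, 99.7 and 115 in libraries labelled Gm1142-/- and 210.3, 206 and 215 in the double knockout. The groups did not overlap, with a log2 fold change from WT of -1.23 (SE 0.12, edgeR adjusted p = 4.35e-07) and of -0.22 in the double knockout (SE 0.11, 0.587).

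Cyp17a1, an enzyme of androgen synthesis, had 165, 156.5 and 46.3 CPM in WT, 13.8, 39.1 and 7.67 in libraries labelled Gm1142-/- and 124, 23.4 and 119 in the double knockout. One library in WT and one in the double knockout lay far below their groups. The log2 fold change from WT was -2.64 (SE 0.54, edgeR adjusted p = 0.00162) in libraries labelled Gm1142-/- and -0.49 (SE 0.48, 0.819) in the double knockout. Hsd3b1, which acts in the same pathway, fell by 0.67 (0.00474), and Por, the reductase that supplies microsomal P450 enzymes, by 0.56 (0.0460), though Por lost the call in 6 of the 9 fits that left out 1 library (highest edgeR adjusted p = 0.141 without WT replicate 3). Star (-0.68, SE 0.34, 0.182) and Nr5a1 (-0.23, SE 0.13, 0.231), a receptor that shares targets with Nr4a1, did not pass, and neither did the partner genes Rxra (-0.28) and Rxrb (0.11).

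In the double knockout none of the 14 was called against WT by the 3 tools or had an unadjusted edgeR p under 0.05 (median -0.07 beside 0.02), with Fdxr and Nr0b2 (0.61, edgeR adjusted p = 0.797) first by p. Between the knockout groups 4 rose and none fell (4 of 14 beside 19.1%, 9.07% higher; median 0.37 beside 0.03): Fdxr by 1.01 (edgeR adjusted p = 6.24e-06), Cyp17a1 by 2.15 (0.00797), Hsd3b1 by 0.59 (0.0120) and Por by 0.64 (0.0225). Cyp17a1 was not called there with DESeq2 or limma-voom. The 4 calls rest on the same libraries labelled Gm1142-/- as those against WT. Hsd3b1 and Por each lost the call in 3 of 9 fits, with a highest edgeR adjusted p of 0.0615 (without double-knockout replicate 2) and 0.0812 (without replicate 2 of those labelled Gm1142-/-). The summed level of 8 Leydig cell markers was 879 to 1181 CPM in libraries labelled Gm1142-/- and 926 to 1322 in the double knockout, against 1199 to 1393 in WT, so only the ranges of WT and of the libraries labelled Gm1142-/- do not overlap. Hsd17b3 made up most of this sum, with a mean of 804 of 1323 CPM in WT and 699 of 997 in libraries labelled Gm1142-/-. The sum thus mostly follows 1 gene. None of the 8 was at 0 throughout. The part of Leydig cells in the level of Nr4a1 was not tested.

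Markers of other cells are given by their summed levels. For 11 macrophage genes the sum was 83.2 to 92.7 CPM in WT, 64.4 to 74.0 in libraries labelled Gm1142-/- and 72.8 to 104 in the double knockout, with the libraries labelled Gm1142-/- below WT. None of the 11 was called there against WT. Log2 fold changes were negative for 8 and positive for 3 (Csf1r 0.48, Adgre1 0.19 and Aif1 0.13). For 8 endothelial genes the sum was 164 to 196, 135.5 to 231 and 134 to 180.2 CPM, and for 5 peritubular and smooth muscle genes 413 to 517, 358 to 518 and 374 to 538. For 10 Sertoli cell genes it was 691 to 762, 717 to 770.2 and 675 to 782. This sum hides opposite changes: in libraries labelled Gm1142-/- Sox9 (-1.47, edgeR adjusted p = 1.56e-04), Sox8 (-1.15, 2.88e-04) and Cst9 (-0.75, 0.00145) fell and the more abundant Wt1 rose by 0.46 (0.00584), 4 of 9 tested beside 18.5% of all tested genes (10.2% higher, 8.38% lower). None of the 9 was called in the double knockout against WT. The sum of 10 germ cell genes was 410 to 484, 336 to 435 and 647 to 790.1 CPM, with the double knockout above the other groups. Dazl fell by 0.66 (edgeR adjusted p = 0.00208) and Uchl1 rose by 0.49 (0.0163) in libraries labelled Gm1142-/-, and both rose in the double knockout (0.83 and 0.77). The other 8 were not called in either comparison with WT, in which 18.5% and 0.0927% of all tested genes were called. In the double knockout 9 of the 10 log2 fold changes were positive, and that of Gfra1 was -0.54. For 6 stromal genes the sum was 1815 to 2230, 1541 to 2592 and 1413 to 2146 CPM, and for 5 lymphocyte genes 4.98 to 6.31, 4.27 to 5.37 and 2.93 to 10.9. For 6 red cell genes it was 68.7 to 82.9, 95.2 to 137 and 62.4 to 82.7 CPM, with the libraries labelled Gm1142-/- highest. Their part in the levels of the 10 genes was not tested.

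The genes nearest to Nr4a1 in pattern were sought by the root mean square difference of log2 CPM profiles over the 9 libraries, each centred on its own mean, among 11479 genes of at least 5 CPM. The nearest 6 were Zfp114 (0.46), Adamts15 (0.48), Olfr1034 (0.53), Slc13a2 (0.54), Ifi27 (0.56) and Dynlt1b (0.56), against a median of 1.14. They had the same order of group means as Nr4a1, and a smaller fall in both knockout groups. Ifi27 had 130 ± 8.64 CPM in WT, 41.7 ± 4.70 in libraries labelled Gm1142-/- and 94.9 ± 2.41 in the double knockout. Dynlt1b, a dynein light chain gene, had 25.2 ± 1.78, 9.46 ± 0.983 and 13.2 ± 1.17 CPM, and the zinc-finger gene Zfp114 9.70 ± 0.944, 1.91 ± 0.559 and 4.49 ± 1.999. The genes were selected for this likeness, and the values describe it.

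**Figure D5:**
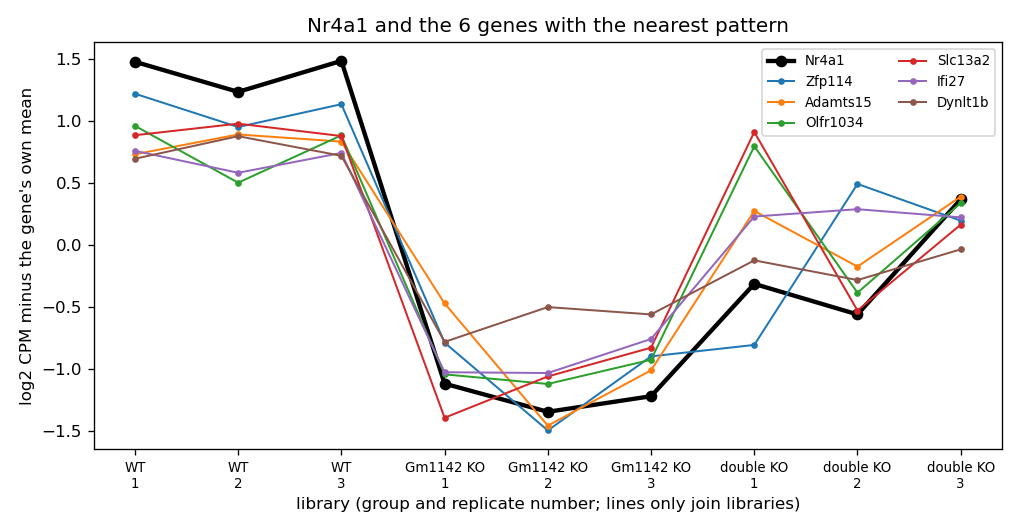
Log2 CPM minus the gene's own mean over 9 libraries for Nr4a1 (black) and the 6 nearest genes (colours), with libraries in group order on the x axis. All 7 are highest in WT and lowest in libraries labelled Gm1142-/- by group mean. The double-knockout libraries are spread widely for Nr4a1, Zfp114, Olfr1034 and Slc13a2, and lie close together for Ifi27 and Dynlt1b. Double-knockout replicate 1 lies in the WT range for Olfr1034 and Slc13a2 and in that of the libraries labelled Gm1142-/- for Zfp114.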

How the data were processed

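RNA of 9 mouse testes samples, 3 per group, was measured as raw read counts per gene in 1 deposited table. Per the submitters' processing notes the authors used cutadapt, Bowtie2, STAR and featureCounts on build mm39; versions, annotation and strand setting are not given in the sources used here. Among genes with 1 to 10 counts, 64.1% to 67.8% of deposited counts were even, against 49.1% to 51.1% among genes with 101 to 1000 counts, a pattern seen where both ends of a read pair are counted, so counting intervals and floors may be too narrow. No molecular identifiers are mentioned, so reads may repeat a molecule.

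Identifiers were matched to symbols for 52073 of 56691 genes. Lists held 188 entries, of which 187 matched. Counts were analysed with edgeR 4.0.16 in R 4.3.3: filterByExpr with the groups (count minimum 10, total minimum 15; 17251 genes left), TMM scaling, 1 quasi-likelihood fit of the 9 libraries with 6 residual degrees of freedom, F-tests of 3 comparisons, Benjamini-Hochberg adjustment over all tested genes, calls at an adjusted p under 0.05. SE is the log2 fold change divided by the square root of F. The test was tested on simulated data. CPM use TMM-scaled library sizes; gene lengths and promoter windows are from mouse builds older than that of the counts; profiles use log2 CPM with a prior count of 2. Genes named from each list were up to 4 called ones with the smallest p per comparison, or up to 2 of a list with none, plus the 6 nearest to Nr4a1; Star, Nr5a1, Rxra, Rxrb and further called genes of a list were added after their values were seen, as were the named markers. The test planned for Nr4a1 between the knockout groups is not used, since its levels there chose it. Members and lists were chosen with earlier results of these data known. Alternatives were DESeq2 1.42.0 and its size factors, limma-voom (limma 3.58.1), other filters, a block for the replicate number, fits of the 2 groups alone, no mitochondrial genes and leaving out each library; halved counts and leaving out 2 libraries together were added after seeing the data.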

Additional observations from a re-analysis of the deposited data

How the results depend on the processing

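Against WT, the log2 fold change of Nr4a1 stayed between -2.72 and -2.59 in libraries labelled Gm1142-/- and between -1.86 and -1.35 in the double knockout over 19 alternatives; between the knockout groups it was 0.79 to 1.35. Of the other 8 tested genes, 2 were called in libraries labelled Gm1142-/- against WT, but 1 with limma-voom and 1 with halved counts, where Fos no longer passed the filter; leaving out 1 library gave 2 to 2, but without replicate 1 of those labelled Gm1142-/- these were Jun and Klf6 in place of Fos and Klf6. Against WT in the double knockout the count was 0 throughout, and between the knockout groups it was 2 to 4 in place of 3, with Nr4a1 counted. Over all genes, 3196, 16 and 3301 were called in the 3 comparisons; the second became 110 with no filter, 63 with DESeq2, 28 with the compared groups alone and 9 to 45 leaving out 1 library. The first was 2037 without WT replicate 1, and the third 2128 without double-knockout replicate 2. The cause was not tested. Same-numbered libraries did not deviate together: the correlations across genes were 0.04 to 0.08 in the first comparison, where each library correlated best with its own number (a hint from the data, not the design), -0.01 to 0.10 in the second and -0.27 to 0.04 in the third. With the replicate block, 2, 0 and 3 members and 2921, 16 and 2965 genes were called, and other immediate early genes called between the knockout groups went from 5 to 3. Leaving out 1 library, counts of called list genes fell as far as 1 of 4 (without WT replicate 1, WT replicate 3 or replicate 2 of those labelled Gm1142-/-) and 1 of 6 (without the last of these) for inducing factors, and 2 of 5 (other immediate early genes) and 2 of 4 (steroidogenic genes) between the knockout groups, both without double-knockout replicate 2. At these depths changes in genes of about 10 counts per library, such as Fosb, Junb and Nr4a3, could not be resolved.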

Other observations

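The other immediate early genes showed some of the same libraries as extremes, though not double-knockout replicate 1, which was highest for 12 and lowest for 12 of 39. There, double-knockout replicate 3 was lowest for 19 of 39. Shares over all tested genes were not computed, so these counts have no background. Replicate 1 of the libraries labelled Gm1142-/- was the highest of its group for 23 of 39 tested genes, and double-knockout replicate 2 for 20 of 39. In WT, replicate 1 was the highest for 18 of 39.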
